A study of Mus musculus with 16 samples.

Results

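The livers of mice treated with an inhibitor of ketohexokinase (KHK) were compared with the livers of mice whose Khk messenger was lowered by siRNA. The paper reports that the inhibitor lowered KHK activity in the liver only in part, and less than the siRNA did. The 8 libraries were chosen by their treatment labels, 4 of HFD + Inhib and 4 of HFD + siRNA, out of 16 libraries in the series. All mice were male C57BL/6J. They were put on their diet at 6 weeks of age, and the treatment filled the final 4 of its 10 weeks. Both treated groups ate a high-fat diet with 60% of calories from fat. HFD + siRNA mice received siRNA against Khk (20 mg/kg under the skin every 2 weeks) and methylcellulose by gavage. HFD + Inhib mice received the KHK inhibitor PF-06835919 (15 mg/kg by gavage, 2 times a day) and luciferase control siRNA (10 mg/kg). The HFD and LFD mice received the control siRNA and methylcellulose and are used here as reference levels only; by its label, the LFD group ate chow. The treated groups therefore differed in 4 things at once: the inhibitor, the Khk siRNA, the control siRNA and the siRNA dose. A GalNAc-conjugated siRNA of this kind acts in hepatocytes, whereas an oral inhibitor reaches other tissues too, so the comparison is between whole treatments. Mice of the study were given saline or insulin shortly before their tissues were taken, and the labels do not say which the sequenced mice received.

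KHK phosphorylates fructose to fructose 1-phosphate, which is split, and triokinase then feeds the product into the middle of glycolysis. In the liver this carbon can enter de novo lipogenesis, the synthesis of fatty acids from acetyl-CoA by ACLY, ACC1, ACC2, FASN and SCD1, whose genes are driven by the transcription factors SREBP-1c and ChREBP. Fatty acids are burned in mitochondria, peroxisomes and, by ω-hydroxylation, in microsomes, and the nuclear receptor PPARα switches on genes of all these routes. An siRNA is directed at the messenger, whereas an inhibitor is directed at the reaction of the enzyme.

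The values are expected counts per gene, which are given as CPM, counts relative to a library total that was scaled by TMM. The totals lay between 28942052 and 33514313 in HFD + siRNA and between 27704386 and 32245606 in HFD + Inhib. Of 50559 gene symbols, 18335 had enough counts to be tested. A gene is called higher or lower where edgeR's quasi-likelihood test gave a Benjamini-Hochberg adjusted p under 0.05, and a log2 fold change of HFD + Inhib over HFD + siRNA is given ± its SE.

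The 2 sets of libraries also differed in their make-up in ways that ran for the most part along the treatments. For 8355 well expressed genes, the deviation of each gene from its mean over the 16 libraries was set against the GC content of its transcripts, and the Spearman correlation across genes was 0.487, -0.107, 0.566 and 0.477 in the HFD + siRNA libraries 1 to 4. It was -0.335, -0.319, -0.564 and -0.519 in the HFD + Inhib libraries. Thus 3 of 4 HFD + siRNA libraries leaned towards GC-rich genes and every HFD + Inhib library leaned away from them, with HFD + siRNA replicate 2 between. Mitochondrial ribosomal RNA took 95.7, 453, 52.9 and 86.3 CPM of the whole library in HFD + siRNA and 991, 1100, 766 and 1191 in HFD + Inhib. The cytoplasmic 7SL RNA genes Rn7s1 and Rn7s2 took 13.0%, 9.31%, 13.9% and 11.2% of the counts in HFD + siRNA and 10.5%, 10.0%, 3.65% and 5.99% in HFD + Inhib, so these groups overlapped. Mice of a single group also differed. In the LFD libraries the GC correlation was 0.573, 0.0106, 0.640 and 0.0702, and mitochondrial ribosomal RNA took 72.0, 125, 44.5 and 1472 CPM. In HFD the correlation lay between -0.468 and -0.0837 and mitochondrial ribosomal RNA between 657 and 1137 CPM. Library preparation and treatment cannot be told apart in these measures, so each result was also computed after GC content and transcript length had been adjusted for in every library. This correction covered 15871 of the tested genes, and the corrected value is given where it moved the call of a named gene or the count of a list.

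**Figure D1:**
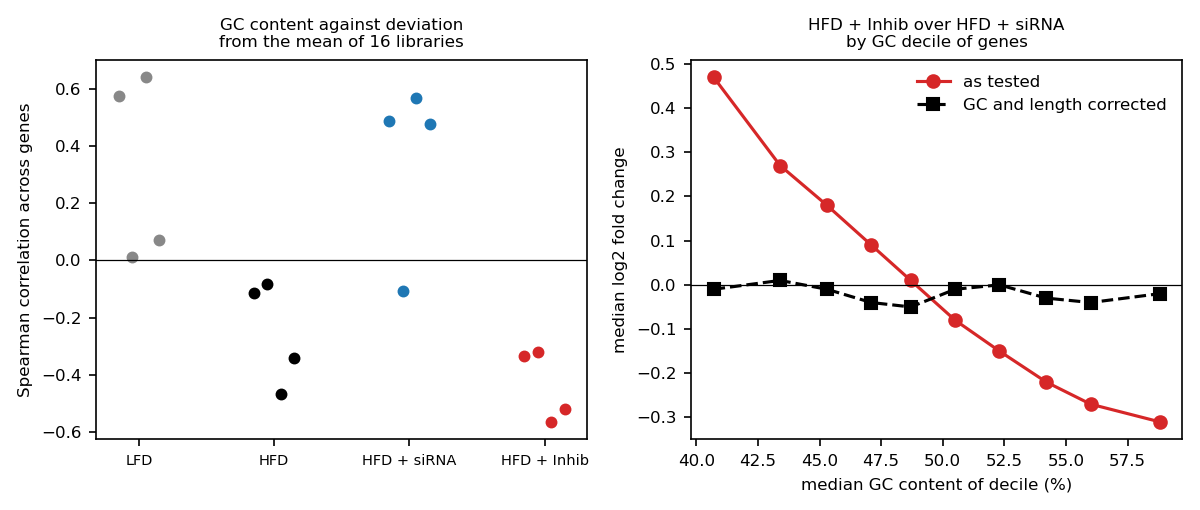
Left, Spearman correlation across 8355 genes between GC content and the log2 deviation of each library from the mean of 16 libraries, one point per library. Right, median log2 fold change of HFD + Inhib over HFD + siRNA in 10 groups of genes ordered by GC content, which ran from 0.47 in the group with the lowest GC content to -0.31 in the group with the highest before the correction and lay between -0.05 and 0.01 after it.

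HFD + Inhib had 3164 genes higher than HFD + siRNA (17.3% of those tested) and 3040 lower (16.6%). After the correction 2227 genes were higher (14.0% of the 15871 covered) and 2473 lower (15.6%). Of the genes covered, 2828 were higher and 2811 lower before the correction, and of these 1698 and 1779 kept their call after it. The median log2 fold change of all tested genes was -0.04. Changes of 4-fold or more (a log2 size of at least 2) were called for 218 genes upwards (1.19%) and 133 downwards (0.725%). In 5948 genes (32.4%) the 4 libraries of one group all lay above the 4 of the other, upwards in 3060 (16.7%) and downwards in 2888 (15.8%). The first principal component of the 8 libraries held 51.9% of the variance and put the HFD + siRNA libraries between -52.3 and -39.9 and the HFD + Inhib libraries between 36.2 and 58.3. Against HFD, HFD + siRNA had 953 genes higher (5.20%) and 1201 lower (6.55%), and HFD + Inhib had 1796 higher (9.80%) and 1543 lower (8.42%). These 2 comparisons share the HFD libraries.

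Khk itself separated the treatments. Its level was 11.8, 9.14, 18.1 and 11.5 CPM in HFD + siRNA and 112, 152, 94.6 and 120 CPM in HFD + Inhib, next to 251, 322, 233 and 251 CPM in HFD. Every HFD + siRNA library lay far under every HFD + Inhib library, and both groups lay under HFD. Khk was 9.47-fold higher in HFD + Inhib than in HFD + siRNA (log2 3.24 ± 0.22, adjusted p = 4.4e-08), and relative to HFD it stood at -4.38 (log2) in HFD + siRNA and -1.14 in HFD + Inhib (adjusted p = 0.00075). So the inhibitor group, in which the messenger was not a target, also had less Khk messenger than the HFD livers given control siRNA and vehicle.

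The other genes of fructose handling moved less. Of the 15 on the list, 2 were higher in HFD + Inhib and 5 lower, next to 17.3% and 16.6% of all genes tested, with a median of -0.29; 2 and 4 were called after the correction, and 3 were lower without HFD + siRNA replicate 3. Tkfc, the triokinase, was at 248, 280, 236 and 267 CPM in HFD + siRNA and at 126, 184, 116 and 127 CPM in HFD + Inhib. The groups did not overlap, and Tkfc fell by 0.90 ± 0.16 on the log2 scale (adjusted p = 0.00054). Aldh3a2, a fatty aldehyde dehydrogenase that is also a PPARα target, went the other way and rose from between 598 and 706 CPM to between 1210 and 1647 CPM (1.16 ± 0.13, adjusted p = 5.1e-06). The fructose transporter Slc2a5 had a log2 fold change of -0.39 ± 0.35 and hexokinase Hk2 of -0.16 ± 0.23, and neither was called. The remaining members called lower were Hk3 (-1.04), Akr1b3 (-0.64), Aldh2 (-0.36) and Sord (-0.34), of which the last 3 are named because they complete the count and were chosen after their values were seen. Hk3 lost its call without HFD + siRNA replicate 4 (-0.60) and with the correction and the replicate block together (-0.73), Aldh2 with the GC correction (-0.14) and without HFD + siRNA replicate 3 (-0.32) or HFD + Inhib replicate 1 (-0.30), and Sord without any of 3 libraries (-0.28 to -0.32).

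**Figure D2:**
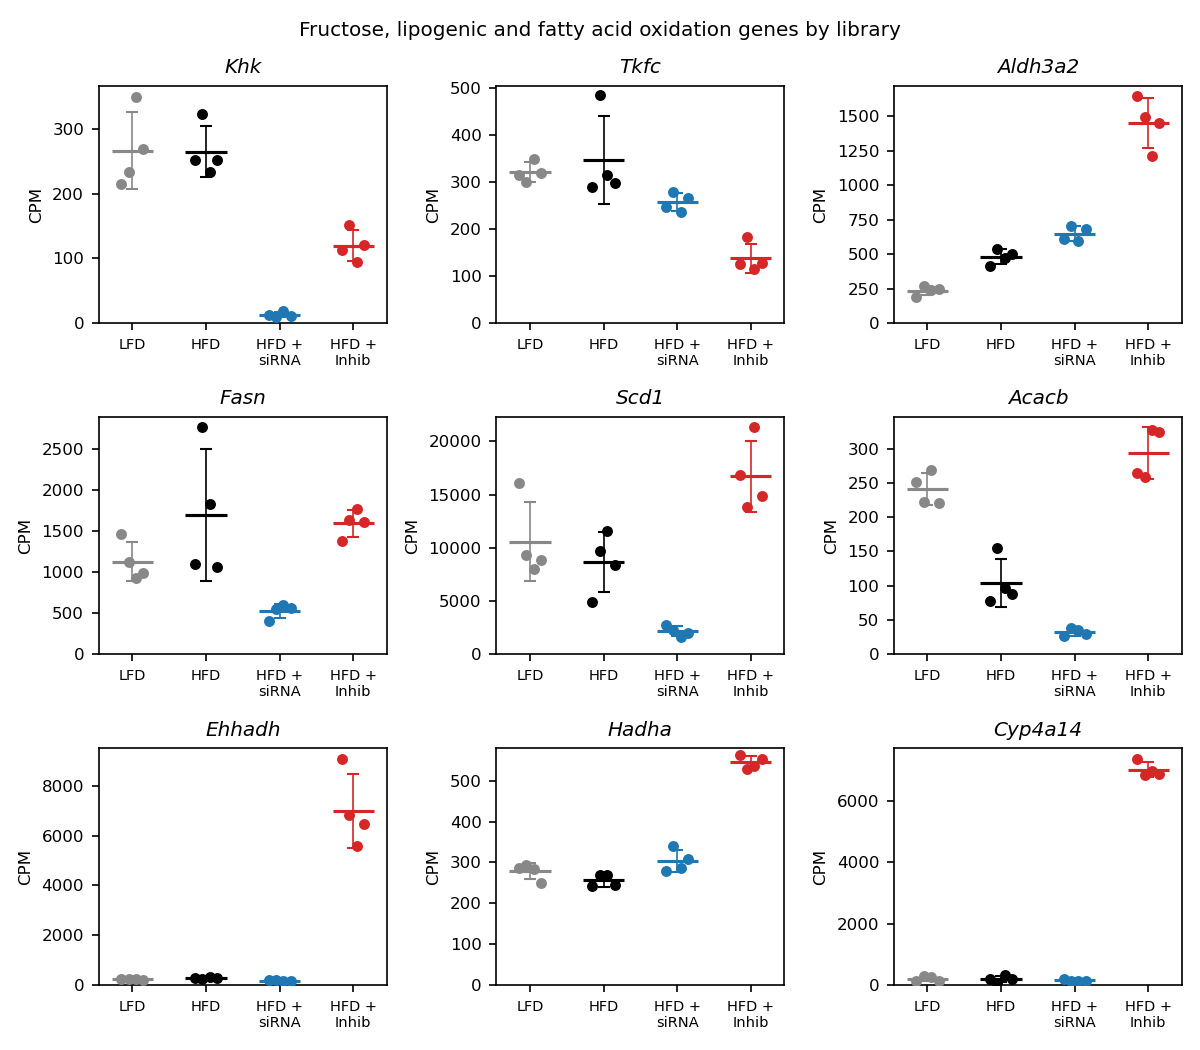
CPM of 9 genes in each of the 16 libraries, with the mean (line) and SD (bar) of each group of 4. Khk was lowest in HFD + siRNA, the lipogenic genes Fasn, Scd1 and Acacb were low in HFD + siRNA, and Ehhadh, Hadha and Cyp4a14 were high in HFD + Inhib.

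Most listed genes of de novo lipogenesis were higher under the inhibitor than under the siRNA. Of the 17 genes of the list, 11 were higher in HFD + Inhib (17.3% of all genes were) and none lower. In 11 genes of the list, not in each case those called, every HFD + Inhib library lay above every HFD + siRNA library, as in 16.7% of all genes. The median log2 fold change of the list was 1.21 before the correction and 1.21 after it, when 13 were called. Scd1, the desaturase that makes oleic acid, was at 2718, 2282, 1630 and 1953 CPM in HFD + siRNA and at 16850, 13820, 21320 and 14860 CPM in HFD + Inhib. It was 7.79-fold higher (2.96 ± 0.28, adjusted p = 1.4e-06). Relative to HFD, whose libraries held 4915 to 11600 CPM, Scd1 stood at -2.01 (log2) in HFD + siRNA (adjusted p = 0.00043) and 0.95 in HFD + Inhib (adjusted p = 0.018).

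Acacb encodes ACC2, the acetyl-CoA carboxylase of the mitochondrial surface whose product restrains carnitine palmitoyltransferase. It was at 25.9, 37.9, 35.0 and 29.7 CPM in HFD + siRNA and at 264, 258, 328 and 324 CPM in HFD + Inhib, a 9.13-fold difference (3.19 ± 0.20, adjusted p = 1.9e-08). Fasn, the fatty acid synthase, was at 405, 544, 602 and 566 CPM against 1376, 1632, 1772 and 1612 CPM (1.59 ± 0.25, adjusted p = 0.0002). Fasn in HFD + Inhib differed from HFD by -0.08 (adjusted p = 0.86), while HFD + siRNA lay 1.68 under HFD on the log2 scale (adjusted p = 0.0011). The siRNA group was therefore the one that departed from HFD at Fasn, whereas at Acacb the groups lay on opposite sides of HFD (-1.70 and 1.5).

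Acaca (ACC1) rose by 0.99 ± 0.16 and Me1, the malic enzyme that supplies NADPH, by 2.48 ± 0.23. The elongases Elovl6 (1.78 ± 0.25) and Elovl5 (1.75 ± 0.17), Thrsp (1.38 ± 0.29) and Acss2 (1.21 ± 0.27) also rose; these 4 are named as members called and were chosen after their values were seen. Pnpla3 rose as well (2.85 ± 0.80, adjusted p = 0.012), from between 0.293 and 0.384 CPM to between 0.247 and 6.57 CPM, but its groups overlapped and the call was lost without HFD + Inhib replicate 3 (1.74). Acly, the citrate lyase, was at 221 to 297 CPM in HFD + siRNA and 291 to 532 CPM in HFD + Inhib, with groups that overlapped slightly and an adjusted p of 0.058 (0.59 ± 0.23); it was called with the correction (0.75, adjusted p = 0.025), with DESeq2, in the fit of only the 8 libraries, with a minimum of 10 counts in every library, and without HFD + siRNA replicate 2 (0.69) or HFD + Inhib replicate 1 (0.72).

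The messengers of the transcription factors of this pathway, counted per gene and so summed over isoforms such as the α and β forms of ChREBP, were not called. Srebf1, which encodes SREBP-1, was at 325, 160, 294 and 224 CPM in HFD + siRNA and at 320, 193, 123 and 241 CPM in HFD + Inhib (-0.19 ± 0.28, adjusted p = 0.62). Mlxipl, which encodes ChREBP, was at 230, 250, 264 and 243 against 230, 273, 287 and 224 CPM (0.04 ± 0.12, adjusted p = 0.83). Among 12 genes of the ChREBP and pentose phosphate list, 4 were higher and none lower, next to 17.3% and 16.6% of all genes, with a median of 0.05. These were Txnip (1.13 ± 0.29), the pentose phosphate enzymes Rpia (0.72) and Pgd (0.69), and Rpe (0.41), which lost its call after the correction (0.03). With the correction 4 members of the list were higher, not all of them the same, and none lower (median 0.15). Pklr, the liver pyruvate kinase and a ChREBP target, was lower (-0.63 ± 0.23, adjusted p = 0.042), and in HFD + siRNA (89.1, 124, 119 and 106 CPM) as in HFD + Inhib (41.7, 84.9, 83.5 and 72.9 CPM) it lay under HFD (214 to 350 CPM). Its call was lost with the correction (-0.42) and without any of HFD + siRNA replicates 2, 3 and 4 or HFD + Inhib replicates 1 and 4 (-0.43 to -0.64).

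Most listed genes of fatty acid oxidation were higher under the inhibitor in each compartment. Of 22 genes of peroxisomal β-oxidation, 14 were higher and 2 lower, where 17.3% and 16.6% of all genes were (median 0.81; 14 and 1 after the correction, median 0.83). Ehhadh, the bifunctional enzyme of the peroxisome, was at 197, 190, 149 and 171 CPM in HFD + siRNA and at 9067, 6816, 5561 and 6448 CPM in HFD + Inhib. This was a 39.3-fold difference (5.30 ± 0.17, adjusted p = 8.4e-12). Acaa1b, the thiolase, rose by 2.11 ± 0.17 and the transporter of fatty acyl-CoA Abcd3 by 1.90 ± 0.13. Abcd2 rose by 1.38 ± 0.30, from HFD + siRNA values under those of HFD (15.6 to 34.5 against 42.7 to 63.3 CPM). Catalase (Cat), which removes hydrogen peroxide, was at 2245 to 2561 CPM in HFD + siRNA and 2435 to 2764 CPM in HFD + Inhib and was not called (0.15 ± 0.09, adjusted p = 0.19). Pecr (-0.49), chosen after its value was seen, was among the 2 members called lower. Pex11a, which drives the division of peroxisomes, rose by 2.20 ± 0.18, and of 16 peroxins 7 were higher and 2 lower, beside 17.3% and 16.6% of all genes, with a median of 0.13 (7 and 1 after the correction). In each of the 8 fits without a single library at most 1 peroxin was lower, and none without HFD + siRNA replicate 1 or 4 or HFD + Inhib replicate 3 or 4.

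Most listed genes of mitochondrial β-oxidation were higher too. Of its 17 genes 13 were higher, against 17.3% of all genes, and none lower (median 0.77, and 0.90 with 14 called after the correction). Hadha, the α subunit of the trifunctional protein, was at 278, 341, 287 and 308 CPM in HFD + siRNA and at 564, 529, 536 and 553 CPM in HFD + Inhib (0.85 ± 0.08, adjusted p = 2.4e-06). Its partner Hadhb rose by 1.36 ± 0.10, the acyl-CoA dehydrogenases Acadl and Acadvl by 1.23 ± 0.10 and 0.73 ± 0.10, and Decr1 and Eci1, which handle unsaturated acids, by 1.39 ± 0.13 and 1.20 ± 0.11. Cpt1a, the rate-limiting carnitine palmitoyltransferase of liver, was an exception in this list. It was at 531, 568, 626 and 561 CPM against 691, 596, 518 and 587 CPM (0.06 ± 0.10, adjusted p = 0.65). Cpt1b, the muscle form, rose from between 2.78 and 3.63 CPM to between 44.1 and 60.3 CPM (4.03 ± 0.22, adjusted p = 4.9e-09); 78.6% of its transcript words of 50 bases also occur in the overlapping read-through gene Gm44502, so reads could be shared between them.

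The microsomal ω-hydroxylases were higher in 6 of 10 genes, against 17.3% of all genes (median 2.66; 7 after the correction). Cyp4a14 was at 201, 138, 147 and 140 CPM in HFD + siRNA and at 7368, 6855, 6995 and 6885 CPM in HFD + Inhib, a 44.9-fold difference (5.49 ± 0.40, adjusted p = 1.1e-07). Cyp4a10 was at 135, 184, 107 and 104 CPM against 5835, 5114, 4432 and 4460 CPM (5.23 ± 0.33, adjusted p = 2.5e-08). Cyp4a31 rose by 6.15 ± 0.24 and Cyp4a12b by 4.55 ± 0.54. These genes are close copies, with 29.8% of the 50-base words of Cyp4a10, 20.6% of Cyp4a31 and 49.4% of Cyp4a12b present in other genes, so that the division of reads within the family is uncertain. Cyp4f14 (-1.31 ± 0.14) and Cyp4v3 (-0.84) were the 2 of 10 members called lower, next to 16.6% of all genes. Both were chosen after their values were seen.

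Acyl-CoA thioesterases, which release free fatty acids from CoA, followed. Acot2 was at 7.53, 4.77, 6.00 and 6.71 CPM in HFD + siRNA and at 254, 213, 143 and 230 CPM in HFD + Inhib (5.07 ± 0.24, adjusted p = 7.8e-10), and Acot1 (4.01 ± 0.26) and Acot3 (4.38 ± 0.48) rose too. Acot5 held at most 3 counts in each HFD + siRNA library and was at least 11.4-fold higher in HFD + Inhib, against the level of 3 counts per library. In all 9 of 13 members were higher and 1 lower, beside 17.3% and 16.6% of all genes (median 0.86; 10 and 1 after the correction), and the lower one was Acot11 (-1.18 ± 0.21), chosen after its value was seen. Acot1, Acot2, Acot3 and Acot5 share 19.2%, 27.7%, 19.1% and 22.1% of their 50-base words with other genes.

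Of 16 genes of fatty acid uptake and activation 11 rose and 1 fell, beside 17.3% and 16.6% of all genes (median 1.17; 10 and 1 after the correction). Cd36, the fatty acid translocase, was at 120, 87.4, 94.7 and 75.5 CPM in HFD + siRNA and at 477, 382, 426 and 486 CPM in HFD + Inhib (2.23 ± 0.22; 1.59 after the correction). Slc27a1, a transporter mainly of muscle and fat, rose by 3.66 ± 0.23, and the acyl-CoA synthetase Acsl1 by 1.39 ± 0.16. Fabp1, the fatty acid binding protein of liver, was at 1355, 3194, 1724 and 2649 CPM against 5733, 7980, 6596 and 6769 CPM (1.6 ± 0.22, adjusted p = 4.6e-05). Fabp4 (3.34 ± 0.24) and Fabp5 (3.28 ± 0.57), the binding proteins of adipocytes and macrophages, rose from low levels; Fabp5 stood at 3.89 without HFD + siRNA replicate 2. The member called lower was Acsm1 (-0.41), chosen after its value was seen.

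Other known PPARα targets were higher in 11 of 17 genes, against 17.3% of all genes, and lower in none (median 0.74). After the correction 14 were higher and 1, Acadsb, was lower (median 0.89); Acadsb was chosen after its value was seen. Pdk4, the kinase that shuts pyruvate dehydrogenase, was at 4.84, 10.9, 5.20 and 16.6 CPM in HFD + siRNA and at 104, 292, 294 and 74.3 CPM in HFD + Inhib (4.34 ± 0.59, adjusted p = 5.2e-05). Vnn1 rose by 2.85 ± 0.22, Ucp3 by 5.75 ± 0.55, Aqp7, a glycerol channel, by 4.56 ± 0.45, Retsat by 3.67 ± 0.23 (chosen after its value was seen) and Angptl4 by 1.33 ± 0.42. Angptl4 lost its call without HFD + siRNA replicate 1 (1.23), Ucp3 stood at 6.37 without HFD + siRNA replicate 2 and Aqp7 at 5.32 without HFD + siRNA replicate 3. Ppara itself rose slightly, from between 417 and 477 CPM to between 529 and 647 CPM (0.42 ± 0.13, adjusted p = 0.017), a call that was lost without HFD + Inhib replicate 4 (0.37). Fgf21, the hepatokine that PPARα induces in fasting, did not follow the others, with 3.26, 4.77, 2.93 and 7.06 CPM in HFD + siRNA and 1.80, 5.91, 5.21 and 2.97 CPM in HFD + Inhib (-0.19 ± 0.46, adjusted p = 0.78).

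Ketone body genes rose in 4 of 8 and fell in 1, beside 17.3% and 16.6% of all genes (median 0.43; 5 and 1 after the correction). The one called lower was Bdh2 (-0.47), chosen after its value was seen, whose call was lost in 6 of the 8 fits without a single library (-0.34 to -0.49), in the fit of only the 8 libraries (-0.46) and with no filter on low counts (-0.45). Bdh1, the mitochondrial hydroxybutyrate dehydrogenase, had a log2 fold change of -0.07 ± 0.08. Against HFD, Ehhadh and Cyp4a14 had log2 fold changes of 4.65 and 5.13 in HFD + Inhib (adjusted p = 4.2e-11 and 3.1e-07). In HFD + siRNA the corresponding values were -0.65 (adjusted p = 0.0084) and -0.36 (adjusted p = 0.53).

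PPARα binds direct repeats of the half-site AGGTCA with 1 base between them. The 250 bases before the start site were searched on both strands for 2 copies of AGGNCA with 1 base between them (N is any base), which occur in 0.400% of 27025 genes with a promoter entry in RefSeq. Among the genes of fatty acid uptake, 13 of 16 had an entry and 1 of them, Fabp1, had a match. No gene of the other oxidation lists with an entry had one. The last 150 bases before the start of Fabp1 are shown because they hold this match, in capitals on the complementary strand, 67 to 55 bases before the start (GRCm38.p6, chr6:71199729-71199878, plus strand):
Fabp1: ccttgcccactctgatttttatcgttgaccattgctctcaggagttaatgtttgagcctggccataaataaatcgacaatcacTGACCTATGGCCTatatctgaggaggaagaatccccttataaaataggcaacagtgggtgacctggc
A match is a description of the letters and not a measured binding site.

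**Figure D3:**
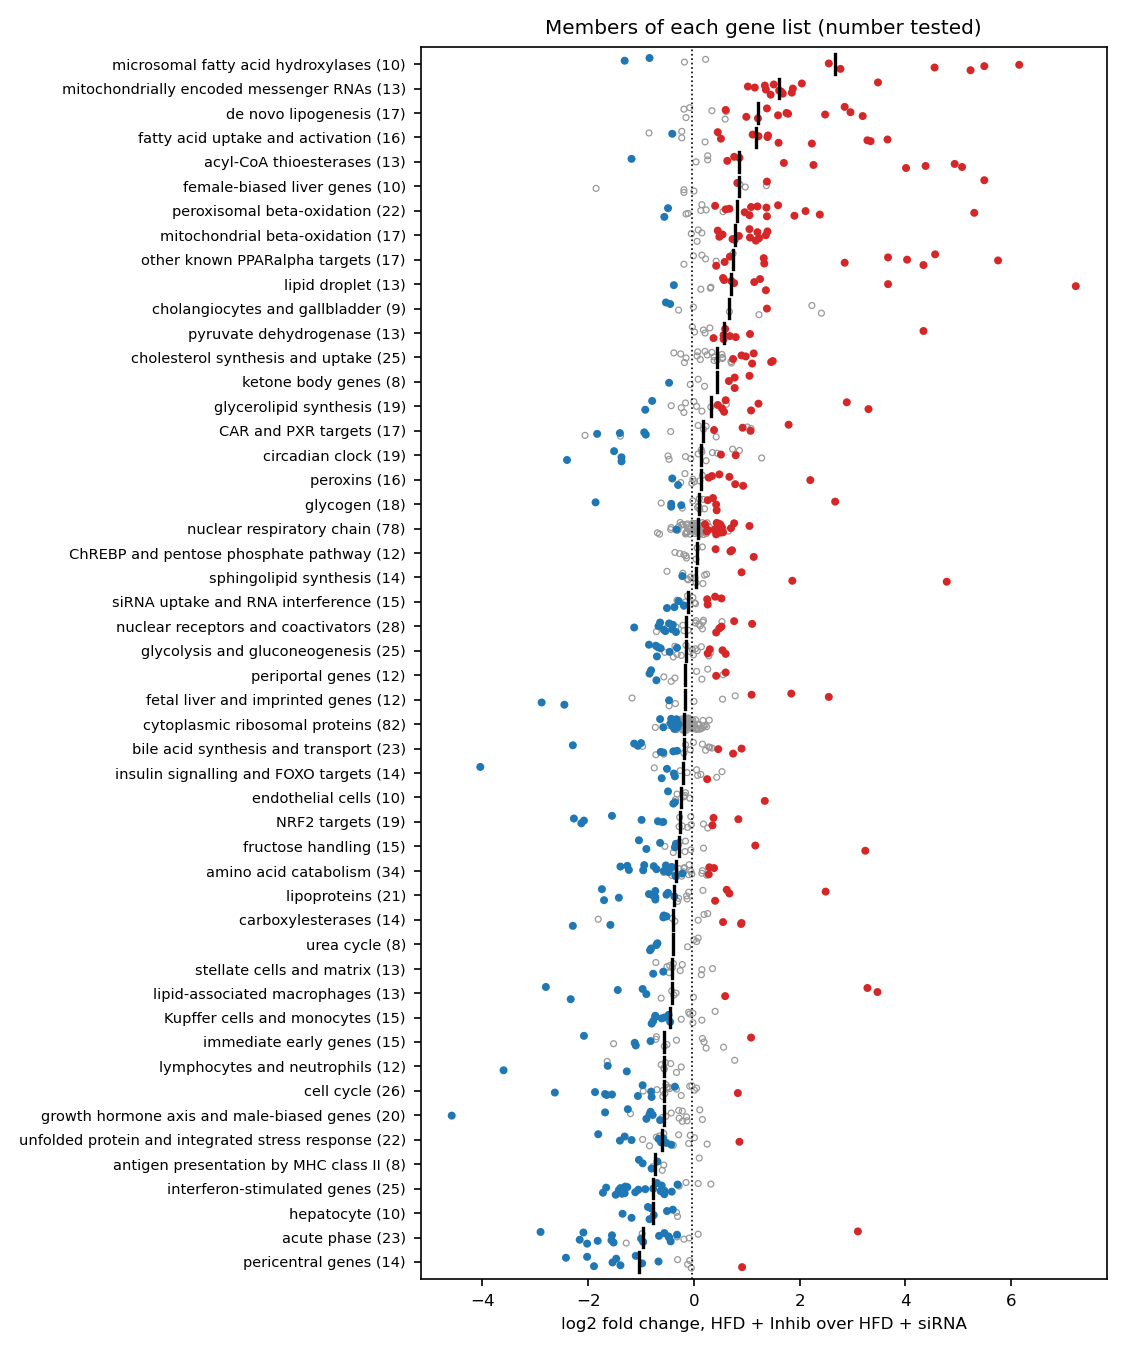
Log2 fold change of HFD + Inhib over HFD + siRNA for each tested member of the gene lists with 8 or more tested members, ordered by the list median (black bar); red and blue points were called higher and lower and open points were not called. The dotted line marks the median of all tested genes (-0.04), and the lists of fatty acid hydroxylation, mitochondrially encoded messengers and de novo lipogenesis lay highest while the pericentral, acute phase and hepatocyte lists lay lowest.

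Lipid droplet genes were mostly higher. Of 13 tested members 9 were higher and 1 lower, beside 17.3% and 16.6% of all genes (median 0.71; 12 and 1 after the correction). Plin2, the coat protein of liver droplets, was at 372, 435, 389 and 452 CPM in HFD + siRNA and at 1248, 1071, 811 and 1108 CPM in HFD + Inhib (1.36 ± 0.15, adjusted p = 7.8e-06). Cidec and Cidea, which fuse droplets, rose more: Cidec from between 2.91 and 4.11 CPM to between 32.9 and 64.9 CPM (3.67 ± 0.37), and Cidea from 0 to 0.218 CPM to between 8.43 and 24.7 CPM (7.22 ± 0.71). The member called lower was Cideb (-0.38), chosen after its value was seen. In glycerolipid synthesis 8 of 19 genes were higher and 2 lower, beside the same shares (median 0.32; 10 and 3 after the correction). Gpat3 (3.30 ± 0.29), Mogat1 (2.89 ± 0.28), Lpin2 (1.22 ± 0.24) and Gpam (1.08 ± 0.14), which add the first acyl chains to glycerol or remove its phosphate, rose. Dgat2, which completes triglyceride from newly made fatty acids, fell from between 331 and 411 CPM to between 157 and 246 CPM (-0.79 ± 0.14, adjusted p = 0.00049), and the other member called lower was Gpat2 (-0.92), chosen after its value was seen. Glycerol kinase (Gk) and Lpgat1 were 0.57 ± 0.08 and 0.60 ± 0.08 higher, but after the correction Gk stood at 0.02 (adjusted p = 0.87) and Lpgat1 at 0.48 (adjusted p = 0.00013).

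Among 14 sphingolipid genes 3 were higher and 1 lower (median 0.03; 3 and 2 after the correction), shares that stood near or under those of all genes, 17.3% and 16.6%. Sptlc3, a subunit of serine palmitoyltransferase, rose from at most 0.147 CPM to between 1.17 and 4.49 CPM (4.78 ± 0.69), and Kdsr, the enzyme of the next step, from 20.7 to 22.8 CPM to 72.7 to 86.5 CPM (1.86 ± 0.08, adjusted p = 3.8e-10). The remaining members called were Ugcg, which adds glucose to ceramide (0.90), and the desaturase Degs1 (-0.22), which lost its call in 6 of the 8 fits without a single library (-0.15 to -0.22), in the fit of only the 8 libraries (-0.21) and with no filter on low counts (-0.21). Sptlc3 stood at 5.43 without HFD + siRNA replicate 4 and at 4.14 without HFD + Inhib replicate 1.

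Of 25 genes of glycolysis and gluconeogenesis 4 were higher and 7 lower, next to 17.3% and 16.6% of all genes, a balance that turned to 7 and 4 after the correction, next to 14.0% and 15.6%. Without HFD + Inhib replicate 1, 2 were higher, and without HFD + siRNA replicate 3 or HFD + Inhib replicate 4, 4 were lower. Slc37a4, the glucose 6-phosphate transporter, fell by 0.85 ± 0.18, Gckr fell by 0.70 ± 0.09, and Gapdh rose by 0.54 ± 0.10. Pck1 (-0.36 ± 0.21) and G6pc (-0.15 ± 0.29), enzymes of gluconeogenesis, were not called. The pyruvate dehydrogenase list had 8 of 13 genes higher, against 17.3% of all genes, and none lower (median 0.56), among them Pdk1 (1.06 ± 0.16) and, above, Pdk4. In glycogen metabolism, 5 of 18 genes were higher and 4 lower, beside 17.3% and 16.6% of all genes, which turned to 2 and 5 after the correction. Without single libraries 2 to 4 were higher, with 2 without HFD + siRNA replicate 1 or 4 and 3 without HFD + siRNA replicate 3 or HFD + Inhib replicate 1 or 4. Targeting subunits of protein phosphatase 1 went opposite ways. Ppp1r3c was at 102, 80.5, 88.2 and 158 CPM in HFD + siRNA and at 12.0, 38.5, 40.8 and 26.8 CPM in HFD + Inhib (-1.86 ± 0.30, adjusted p = 0.00024). Ppp1r3g was at 0.380, 7.43, 3.94 and 0.293 CPM against 18.9, 24.3, 9.49 and 22.3 CPM (2.67 ± 0.83, adjusted p = 0.021), a call lost without HFD + siRNA replicate 1 (2.30) or 4 (2.28), while the difference was 3.66 without HFD + siRNA replicate 2. Ppp1r3b was not called (-0.62, adjusted p = 0.0727), but it was after the correction (-0.69, adjusted p = 0.049), with DESeq2 (-0.61) and without HFD + siRNA replicate 1 (-0.77); it was chosen after its value was seen. The phosphorylase Pygl fell by 0.43 ± 0.10. The synthase Gys2 was higher (0.43 ± 0.16, adjusted p = 0.041), but not with the correction (0.32), with the replicate block (0.42) nor without HFD + siRNA replicates 1 (0.45) or 4 (0.37) or HFD + Inhib replicates 1 (0.33) or 4 (0.40).

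Of 25 genes of cholesterol synthesis and uptake 7 were higher, next to 17.3% of all genes, none was lower and 18 were not called (median 0.44; 11 called with a median of 0.54 after the correction). Idi1 (1.49 ± 0.34), Pmvk (1.46 ± 0.26), Insig1 (1.13 ± 0.17) and Hmgcs1 (1.10 ± 0.29) rose. HFD + siRNA replicate 1 had the lowest value of its group at each of these genes, for example 235 CPM at Hmgcs1 against 791, 711 and 506 CPM. Sqle, the squalene epoxidase, was not called (0.12 ± 0.34).

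Lipoprotein genes were mostly lower, with 11 of 21 lower and 4 higher, beside 16.6% and 17.3% of all genes (median -0.37; 12 and 3 after the correction). Apoa4 stood at 193, 159, 162 and 183 CPM in HFD + siRNA and at 58.5, 50.8, 59.2 and 45.7 CPM in HFD + Inhib (-1.70 ± 0.22, adjusted p = 3.5e-05). Apoc2, the activator of lipoprotein lipase, fell by 1.42 ± 0.13, but 78.3% of its 50-base words also occur in Gm44805. Angptl8 was lower as well (-1.74 ± 0.55, adjusted p = 0.023), a call lost without HFD + siRNA replicate 3 (-1.45) or 4 (-1.48) or HFD + Inhib replicate 1 (-1.41) or 3 (-1.53), or with the correction and the replicate block together (-1.39). Pltp, the phospholipid transfer protein, went against the list and rose from between 24.4 and 38.0 CPM to between 147 and 208 CPM (2.49 ± 0.19, adjusted p = 1.6e-07). Apob (-0.13 ± 0.12) and Apoa1 (-0.31 ± 0.15) were not called; Apob was called lower after the correction (-0.30) and Apoa1 without HFD + Inhib replicate 3 (-0.43). Of 23 genes of bile acid synthesis and transport 8 were lower and 3 higher, next to 16.6% and 17.3% of all genes (11 and 3 after the correction). The uptake transporter Slco1a4 fell by 2.29 ± 0.39 and Nr0b2, the repressor SHP, by 1.13 ± 0.23, and Cyp8b1, the 12α-hydroxylase, rose by 0.74 ± 0.18. Slco1a1 was lower by 1.06 ± 0.30, a call lost without HFD + siRNA replicate 2 (-0.73) and standing at -1.67 after the correction, and Cyp7a1, the rate-limiting enzyme, was not called (-0.72 ± 0.52).

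All 13 messengers encoded by the mitochondrial genome were higher in HFD + Inhib, where 17.3% of all genes were. Every HFD + Inhib library lay above every HFD + siRNA library, as in 16.7% of all genes, for each of these messengers. Together they made up 38470, 40670, 36360 and 33570 CPM in HFD + siRNA and 84070, 92850, 123400 and 85790 CPM in HFD + Inhib, next to 52010 to 97800 CPM in HFD and 23660 to 56980 CPM in LFD. The median log2 fold change was 1.61, and 0.68 after the correction, when 13 were still called. Against HFD 12 were lower in HFD + siRNA, where 6.55% of all genes were, and none was called in HFD + Inhib. The change was uneven, from 1.02 ± 0.23 for COX1 to 2.04 ± 0.33 for ATP6 and 3.48 ± 0.53 for ATP8, and the latter stood at 1.09 and 2.45 after the correction. Nuclear copies share 51.1% of the 50-base words of COX1 and 99.5% of those of ATP6. Of 78 respiratory chain genes of the nucleus, which build the same complexes, 19 were higher and 1 lower, beside 17.3% and 16.6% of all genes (median 0.08), and 28 and 1 of the 75 covered after the correction, beside 14.0% and 15.6%. The mitochondrial ribosomal RNA moved in the same direction between these libraries, as given above, and its part in the result was not tested.

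Interferon-stimulated genes were lower under the inhibitor. Of 25 genes 20 were lower (16.6% of all genes were) and none higher, with a median of -0.77 (22 lower after the correction, median -0.84). Isg15, a ubiquitin-like modifier, was at 8.03, 5.39, 8.06 and 6.97 CPM in HFD + siRNA and at 2.37, 3.54, 1.10 and 1.68 CPM in HFD + Inhib, next to 3.53 to 5.98 CPM in HFD. It fell by 1.72 ± 0.27 on the log2 scale (adjusted p = 0.00017). Ifit1, which binds foreign RNA, was at 13.2, 8.27, 11.4 and 11 CPM against 4.42, 4.47, 3.92 and 2.94 CPM (-1.48 ± 0.23, adjusted p = 0.00017). The antiviral GTPase Mx2 (-1.66 ± 0.22) and the deubiquitinase Usp18 (-1.42 ± 0.20) fell too. Against HFD, 19 of the 25 were lower in HFD + Inhib (8.42% of all genes were) and 1 in HFD + siRNA (6.55%), where the medians were -0.81 and 0.01. All 3 groups had received siRNA, at 10 mg/kg in HFD and HFD + Inhib and at 20 mg/kg in HFD + siRNA.

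The interferon-stimulated response element holds GAAA repeats. GAAA followed by any 2 bases and GAAA was searched on both strands in the 250 bases before the start site and occurs in 3.46% of 27025 genes. Of the 25 interferon-stimulated genes 18 had a promoter entry and 9 of these held the letters; the list was made of known interferon targets, so this is a description of the list. The last 150 bases before the start of the list's reference genes are shown with every match in capitals, overlapping matches joined (GRCm38.p6; Isg15 at chr4:156200819-156200968, minus strand, with 3 matches between 78 and 57 bases before the start; Ifit1 at chr19:34640739-34640888, plus strand, with 2 matches between 104 and 76 bases before it, both on the complementary strand):
Isg15: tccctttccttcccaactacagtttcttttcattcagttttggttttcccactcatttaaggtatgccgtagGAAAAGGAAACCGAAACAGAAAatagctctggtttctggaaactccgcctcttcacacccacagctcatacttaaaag
Ifit1: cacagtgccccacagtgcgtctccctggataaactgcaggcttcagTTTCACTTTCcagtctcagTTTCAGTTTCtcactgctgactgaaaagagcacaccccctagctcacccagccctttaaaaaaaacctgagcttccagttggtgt

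Acute phase genes, which the liver secretes in inflammation, were lower in 16 of 23 and higher in 1, beside 16.6% and 17.3% of all genes (median -0.96; 17 and 1 after the correction, median -0.81). Saa1 was at 20.9, 14.6, 24.3 and 49.7 CPM in HFD + siRNA and at 8.41, 7.34, 5.28 and 6.12 CPM in HFD + Inhib (-2.02 ± 0.49, adjusted p = 0.005), and Lcn2 fell by 2.16 ± 0.41. The groups of both genes did not overlap; 31.5% of the 50-base words of Saa1 occur in other genes. The metallothioneins Mt1 and Mt2 were called lower too, but they were high in HFD + siRNA replicates 1 and 3 only, with 29.3, 2.29, 35.0 and 4.13 CPM for Mt1 against 1.88 to 6.71 CPM in HFD + Inhib. The call of Mt1 (-2.09 ± 0.70) was lost without either of these (-1.72 and -1.51) and without HFD + Inhib replicate 2, 3 or 4 (-1.85 to -2.23) and in the fit of only the 8 libraries (-2.08) and with the correction and the block together (-1.78), and Mt2 (-2.90) stood at -2.31 without HFD + siRNA replicate 3. Il1rn, the antagonist of the interleukin-1 receptor, was the one gene that rose, from between 1.29 and 4.37 CPM to between 13.0 and 30.3 CPM (3.10 ± 0.35, adjusted p = 7.5e-06). Hamp was not called (-0.98 ± 0.49), except with the replicate block (-1.11) and in the fit of only the 8 libraries (-0.98).

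**Figure D4:**
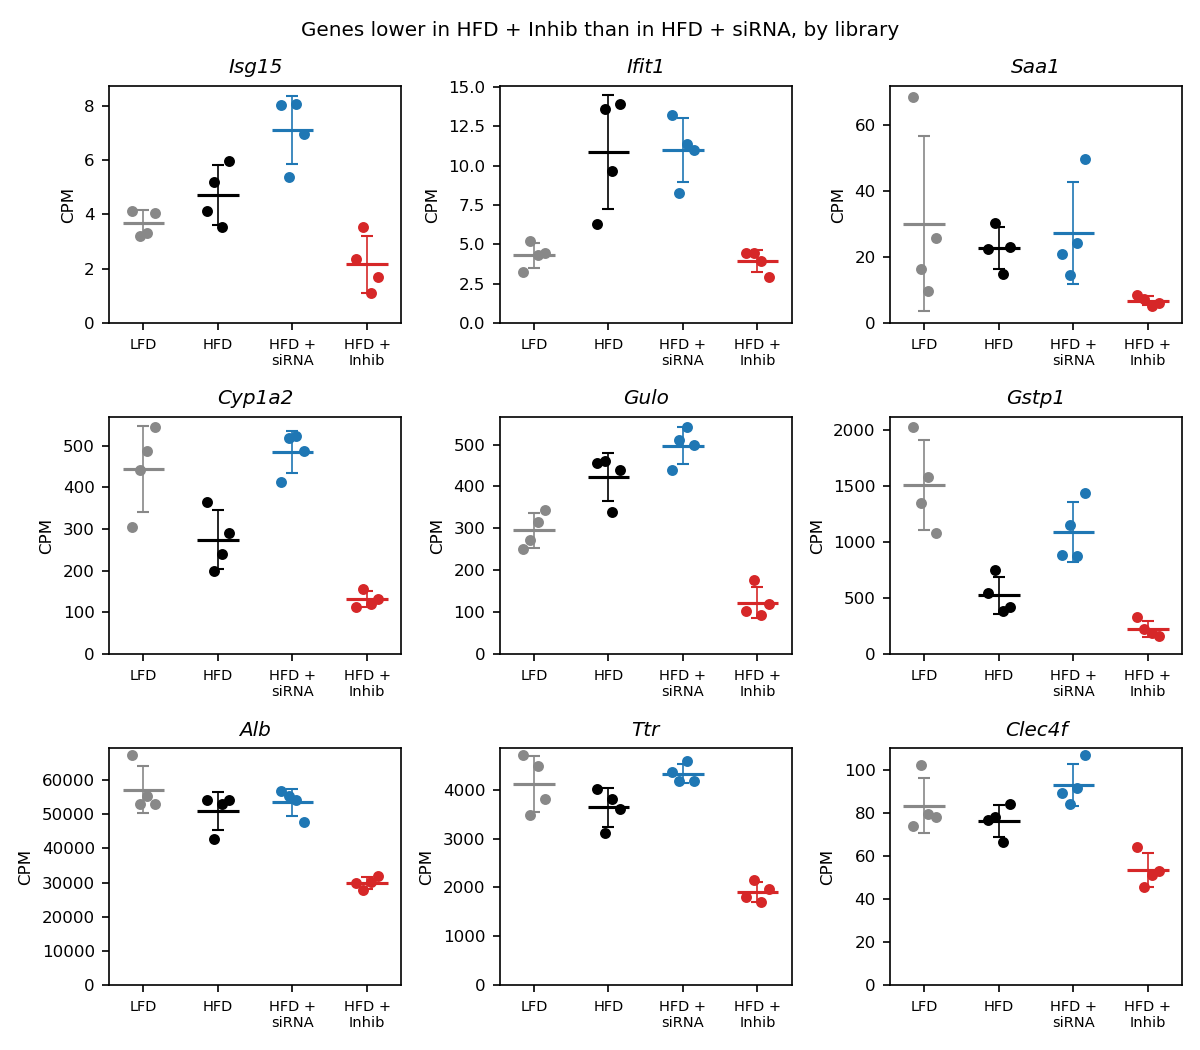
CPM of 9 genes in each of the 16 libraries, with the mean (line) and SD (bar) of each group of 4. In each panel the 4 HFD + Inhib libraries lay below the 4 HFD + siRNA libraries, for example between 27700 and 31980 CPM for Alb against 47680 to 56700 CPM.

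Most listed genes of the zone around the central vein were lower. Of 14 pericentral genes 9 were lower and 1 higher, beside 16.6% and 17.3% of all genes (median -1.04, and -1.0 after the correction). Cyp1a2 was at 414, 518, 522 and 486 CPM in HFD + siRNA and at 114, 157, 120 and 133 CPM in HFD + Inhib (-1.89 ± 0.19, adjusted p = 2.6e-06). Gulo, the last enzyme of vitamin C synthesis, was at 439, 511, 543 and 498 CPM against 103, 176, 93.6 and 119 CPM (-2.02 ± 0.17, adjusted p = 5.8e-07). Cyp2a5 (-2.42 ± 0.45) and Lgr5, a receptor of the Wnt pathway (-1.54 ± 0.25), fell, whereas Cyp2e1 rose by 0.91 ± 0.21 and Glul, the glutamine synthetase of the innermost cells, had a log2 fold change of -0.05 ± 0.23. Of 12 periportal genes, 3 were lower and 2 higher, next to 16.6% and 17.3% of all genes, with 5 lower without HFD + Inhib replicate 1 and 4 higher without HFD + Inhib replicate 2, and Cyp2f2 (-0.43 ± 0.18) was not called except without HFD + Inhib replicate 1 (-0.70) and with the replicate block (-0.47). The decrease was thus not shared by every pericentral gene.

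Among detoxifying enzymes, 7 of 19 NRF2 targets were lower and 3 higher, next to 16.6% and 17.3% of all genes (8 and 4 after the correction). Gstp1 was at 883, 1150, 877 and 1441 CPM in HFD + siRNA and at 327, 224, 188 and 163 CPM in HFD + Inhib (-2.27 ± 0.27, adjusted p = 1.2e-05), and Gstm2 fell by 2.08 ± 0.17. Gsta1 was lower (-2.13 ± 0.60), a call lost without HFD + siRNA replicate 1 (-1.40). Nqo1 (0.26 ± 0.18) and Gclc (-0.28 ± 0.17), the usual reference targets of NRF2, were not called. Gstp1 shares 33.7% of its 50-base words with Gstp2 and Gsta1 90.5% with other genes. Of 17 CAR and PXR targets 4 were higher and 4 lower, next to 17.3% and 16.6% of all genes. After the correction 3 were higher and 5 lower, next to 14.0% and 15.6%. Cyp3a11 was up by 1.07 ± 0.23 and Cyp2c37 down (-1.83 ± 0.45). Cyp2b10 was at 0.259 to 2.93 CPM in both groups and was not called (-1.39 ± 0.57), except with DESeq2 (-1.36) and without HFD + siRNA replicate 1 (-1.69) or HFD + Inhib replicate 2 (-1.82). Hsd11b1, the enzyme that regenerates active glucocorticoid, was noticed after the values were seen and was at 313 to 351 CPM in HFD + siRNA against 89.1 to 111 CPM in HFD + Inhib (-1.69 ± 0.14, adjusted p = 4.2e-07).

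Most listed hepatocyte markers, some secreted and some not, were lower in HFD + Inhib. Of 10 hepatocyte markers 8 were lower, against 16.6% of all genes, and none higher (median -0.78; 7 after the correction). Albumin (Alb) was at 56700, 55280, 54220 and 47680 CPM in HFD + siRNA and at 29780, 27700, 30230 and 31980 CPM in HFD + Inhib, next to 42760 to 54190 CPM in HFD (-0.84 ± 0.13, adjusted p = 0.00021). Transthyretin (Ttr) fell by 1.18 ± 0.12 and Serpina1c, an α1-antitrypsin, by 1.35 ± 0.14, although 74.2% of the 50-base words of Serpina1c occur in its copies. The markers summed to 95450, 91030, 88730 and 81240 CPM against 51650, 48680, 48370 and 49940 CPM, with Alb the most abundant. CPM are shares of the library, and in whole liver fewer cells of a type and less RNA per cell cannot be told apart.

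In nitrogen metabolism, calls were mostly downwards, next to 16.6% of all genes called lower. Of 8 urea cycle genes 4 were lower, 4 not called and none higher (median -0.40; 5 lower after the correction), with Cps1, the carbamoyl-phosphate synthetase, at 6103, 5479, 5260 and 4607 CPM in HFD + siRNA and at 3802, 3150, 2412 and 2834 CPM in HFD + Inhib (-0.81 ± 0.14, adjusted p = 0.00042). Of 34 genes of amino acid catabolism 13 were lower and 3 higher, beside 16.6% and 17.3% of all genes. A further 18 were not called. After the correction 12 of the 34 were lower and 1 higher. None was higher without HFD + siRNA replicate 4 or HFD + Inhib replicate 1, and 1 without HFD + siRNA replicate 3. Oat (-1.39 ± 0.25), Cbs (-1.26 ± 0.17) and Prodh (-1.23 ± 0.17), which act on ornithine, homocysteine and proline, fell without overlap between the groups. Tat (-0.33 ± 0.27) and Sds (0.15 ± 0.42) were not called, and Gpt (-0.57 ± 0.17) lost its call after the correction (-0.31) and without HFD + siRNA replicate 3 (-0.47) or HFD + Inhib replicate 3 (-0.42).

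Of 22 genes of the unfolded protein and integrated stress responses 10 were lower and 1 higher, beside 16.6% and 17.3% of all genes (median -0.60). After the correction 11 were lower and none higher, beside 15.6% and 14.0%. The glutathione-degrading enzyme Chac1 (-1.81 ± 0.48), the chaperone factor Sdf2l1 (-1.40 ± 0.31) and the transcription factor Atf5 (-1.31 ± 0.20) fell. Hspa5, the chaperone BiP, ranged from 495 to 1433 CPM in HFD + siRNA and from 369 to 696 CPM in HFD + Inhib and was not called (-0.84 ± 0.34, adjusted p = 0.067), except without HFD + siRNA replicate 1 (-1.01) or 3 (-1.02) or HFD + Inhib replicate 2 (-1.06), with the replicate block (-0.77) or after the correction (-0.97). Ddit3 (-0.65 ± 0.26) was called only without HFD + siRNA replicate 3 (-0.82), and Asns (-0.29 ± 0.90) was not called. The higher member was Dnajb9 (0.86), chosen after its value was seen, whose call was lost after the correction (0.51) and without HFD + siRNA replicate 1 (0.71) or 3 (0.68) or HFD + Inhib replicate 3 (0.73).

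Cell cycle genes were lower in 10 of 26 and higher in 1, beside 16.6% and 17.3% of all genes (median -0.57; 12 and none after the correction). Without HFD + siRNA replicate 3 or 4 or HFD + Inhib replicate 1, 6 were lower, which is nearer to the share of all genes. Ccnd1, cyclin D1, was at 48.6, 48.5, 52.3 and 59.2 CPM in HFD + siRNA and at 20.5, 11.6, 12.0 and 21.0 CPM in HFD + Inhib (-1.68 ± 0.34, adjusted p = 0.0013). Cdc20 (-2.63 ± 0.38) and Plk1 (-1.87 ± 0.44), which act in mitosis, fell from levels under 3 CPM. Mki67 (-0.80 ± 0.28, adjusted p = 0.034) lost its call without any of HFD + siRNA replicates 2, 3 and 4 or HFD + Inhib replicates 1, 3 and 4 (-0.66 to -0.85). Cdkn1a, the inhibitor p21, was not called (-0.53 ± 0.58), except without HFD + Inhib replicate 3 (-1.68), whose 22.6 CPM stood against 2.64 to 6.37 CPM in the rest of its group.

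Of 20 genes of growth hormone signalling and of male-biased expression in liver 8 were lower, against 16.6% of all genes, and none higher (median -0.57; 9 lower after the correction), but individual mice differed widely. Among the 8, Stat5b (-0.64) and Igfals (-0.90) belong to the signalling members, which are not male-biased genes, and were chosen after their values were seen. Hsd3b5 was at 16.1, 139, 12.0 and 45.1 CPM in HFD + siRNA and at 3.25, 2.06, 3.17 and 0.480 CPM in HFD + Inhib (-4.58 ± 0.82, adjusted p = 0.00054), and the difference was -3.44 without HFD + siRNA replicate 2. Mup1 was at 87.4, 827, 223 and 443 CPM against 210, 112, 100 and 71.0 CPM, and its call (-1.68 ± 0.55) was lost without HFD + siRNA replicate 2 (-1.01) or 4 (-1.61) or any of HFD + Inhib replicates 2, 3 and 4 (-1.49 to -1.63), and with the replicate block (-1.39); 61.6% of its 50-base words occur in other genes. Igf1 (0.16 ± 0.12), Mup20 (-0.22 ± 0.28) and Elovl3 (-0.53 ± 0.46) were not called. Clock genes also varied within groups. Arntl was at 16.5, 21.3, 10.2 and 38.8 CPM in HFD + siRNA and at 4.28, 9.25, 16.9 and 3.12 CPM in HFD + Inhib, its partner Npas2 at 2.34 to 12.4 CPM against 0.480 to 2.46 CPM, and both groups overlapped. Of 19 clock genes 4 were lower and 2 higher (4 and 1 after the correction), next to 16.6% and 17.3% of all genes, with 4 higher without HFD + siRNA replicate 3 and 1 without HFD + siRNA replicate 4 or HFD + Inhib replicate 1 or 4. Npas2 (-2.40 ± 0.59), Nfil3 (-1.51 ± 0.33) and Cry1 (-1.37 ± 0.35) were called, and Arntl (-1.37 ± 0.50) lost its call without most single libraries, for example at -0.92 without HFD + siRNA replicate 4, was not called in the fit of only the 8 libraries either, and stood at -1.98 without HFD + Inhib replicate 3. Npas2 stood at -1.72 without HFD + siRNA replicate 4 and at -3.14 without HFD + Inhib replicate 3. Per2 (-0.06 ± 0.28) and Dbp (0.44 ± 0.80) were not called. Without single libraries Dbp ranged from 0.09 to 1.06, the latter without HFD + siRNA replicate 3.

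The remaining lists are given by their counts, to be read next to the 17.3% of all genes called higher and the 16.6% called lower. Female-biased genes were higher in 3 of 10 and lower in none. The 3 include Abcd2 and Cyp4a14, which also belong to the oxidation lists above. Immediate early genes were higher in 1 and lower in 4 of 15, and insulin signalling genes higher in 1 and lower in 5 of 14. Nuclear receptors and coactivators were higher in 5 and lower in 9 of 28. Carboxylesterases were higher in 3 and lower in 5 of 14, fetal liver and imprinted genes 3 and 3 of 12, and genes of siRNA uptake and RNA interference 4 and 4 of 15. Cytoplasmic ribosomal protein genes were higher in none and lower in 14 of 82 (median -0.18), the latter at the share of all genes. After the correction the counts higher and lower were 1 and 3 for immediate early genes, 2 and 3 for insulin signalling, 4 and 6 for nuclear receptors, 1 and 3 for fetal and imprinted genes, 2 and 2 for siRNA uptake and RNA interference, and 1 and 13 for ribosomal proteins. Without single libraries, ribosomal proteins were lower in 6 without HFD + Inhib replicate 3 or 4, in 7 without HFD + siRNA replicate 3 or 4 and in 8 without HFD + siRNA replicate 2, where 4 were higher. Nuclear receptors were higher in 2 without HFD + Inhib replicate 4. Immediate early genes were lower in 2 without HFD + siRNA replicate 3 or HFD + Inhib replicate 1 or 3. Fetal and imprinted genes were higher in 1 without HFD + siRNA replicate 2 or 4 or HFD + Inhib replicate 4. Genes of siRNA uptake were lower in 2 without HFD + siRNA replicate 1 or 3 or HFD + Inhib replicate 1 or 2.

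Markers of the other cells of the liver were also measured. Of 15 tested Kupffer cell and monocyte markers 8 were lower, against 16.6% of all genes, and none higher (median -0.45; 6 after the correction), summing to 422, 352, 436 and 496 CPM in HFD + siRNA and 343, 234, 262 and 292 CPM in HFD + Inhib, with Clec4f the most abundant. Clec4f fell by 0.80 ± 0.12 and Cd5l by 0.77 ± 0.17, and Adgre1 was not called (-0.24 ± 0.21). Of 13 markers of lipid-associated macrophages 3 were higher and 5 lower, beside 17.3% and 16.6% of all genes (median -0.42; 3 and 5 after the correction). Trem2, a receptor of these cells, was at 1.64, 0.765, 1.36 and 1.26 CPM against 0.389, 0.233, 0.259 and 0.120 CPM (-2.33 ± 0.51, adjusted p = 0.0022). Mmp13 held at most 3 counts in each HFD + Inhib library and was at least 3.09-fold lower there, and Gpnmb (-0.62 ± 0.53) was not called. Lpl and Fabp5 of the same list rose (3.47 ± 0.31 and 3.28), and the list, of which Lpl held the largest part, summed to 61.9 to 68.3 CPM in HFD + siRNA and 183 to 358 CPM in HFD + Inhib. Lpl, the lipase of lipoproteins, was at 20.7, 16.8, 12.9 and 17.6 CPM against 213, 124, 248 and 170 CPM.

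Of 8 adipocyte markers, Adipoq, Lep, Retn and Plin1 held at most 3 counts in each of the 8 libraries. The 4 that could be tested, Fabp4, Cfd (2.23 ± 0.53), Adrb3 (1.29) and Lipe (0.55), were all higher, against 17.3% of all genes. The call of Lipe was lost in 5 of the 8 fits without a single library (0.45 to 0.54). It was also lost with the replicate block (0.55) and in the fit of only the 8 libraries (0.56). The markers summed to 31.6 to 41.2 CPM in HFD + siRNA and to 102 to 172 CPM in HFD + Inhib, with Fabp4 the most abundant. Of 10 pancreas markers 6 held at most 3 counts in each of the 8 libraries and 1, Cela1, was tested (-2.22 ± 0.19). Of 8 muscle markers 7 held at most 3 counts. Next to 16.6% of all genes lower and 17.3% higher, stellate markers were lower in 2 of 13, endothelial markers lower in 3 and higher in 1 of 10, cholangiocyte markers lower in 2 and higher in 1 of 9, lymphocyte and neutrophil markers lower in 3 of 12 and MHC class II genes lower in 4 of 8. After the correction stellate markers were lower in 6, endothelial markers lower in 1 and higher in 1, cholangiocyte markers lower in 1 and higher in none, lymphocyte and neutrophil markers lower in 3 and MHC class II genes lower in 1. MHC class II genes were lower in 7 without HFD + siRNA replicate 2, in 1 without HFD + siRNA replicate 4 and in 2 without HFD + siRNA replicate 1 or 3 or HFD + Inhib replicate 2 or 4. Cholangiocyte markers were lower in 1 without any single library other than HFD + siRNA replicate 2 or HFD + Inhib replicate 3. Stellate markers were lower in 4 without HFD + siRNA replicate 2, and endothelial markers in 5 without HFD + siRNA replicate 1 and in 1 without HFD + siRNA replicate 3 or 4 or HFD + Inhib replicate 3. The part of these cell markers in the results above was not tested. Asgr1, the receptor that carries GalNAc-siRNA into hepatocytes, was at 280, 270, 296 and 283 CPM in HFD + siRNA and at 215, 223, 142 and 210 CPM in HFD + Inhib (-0.51 ± 0.14, adjusted p = 0.0088).

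Several of the largest increases lay outside the lists. Otop1, a proton channel, had 0 counts in every HFD + siRNA library and 34.7, 11, 16.5 and 30.0 CPM in HFD + Inhib, at least 232-fold higher against the level of 3 counts per library. Gm15441, a long noncoding RNA on the strand opposite to Txnip, was at 0.117 to 0.314 CPM in HFD + siRNA and at 202, 140, 76.9 and 100 CPM in HFD + Inhib (9.27 ± 0.48, adjusted p = 2.2e-09). Reads of Gm15441 and Txnip can be told apart where they overlap only if counting used the strand, which the sources used here do not state. Gm52676 rose by 6.52 ± 0.62. Gm8783, Gm7329, Gm5940 and Gm14419 were also among the 10 largest increases (7.41, 6.84, 6.83 and 6.73), but 100%, 85.1%, 95.1% and 94.3% of their 50-base words occur in other genes, those of Gm7329 in Me1, and their values are uncertain. In Gm8783, Gm5940 and Gm14419, 1 HFD + siRNA library alone held counts, so that no difference can be given without it. Gm5940 stood at 5.98 without HFD + Inhib replicate 3, and Gm7329 at 8.09 without HFD + siRNA replicate 3 and 6.24 without HFD + Inhib replicate 3. Peg3, an imprinted gene and a member of the fetal and imprinted list, rose from between 5.31 and 9.05 CPM to between 32.4 and 57.8 CPM (2.55 ± 0.21, adjusted p = 3.8e-07).

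The largest decreases also lay outside most lists. Serpina12, the adipokine vaspin, was at 4.18, 64.1, 21.1 and 30.5 CPM in HFD + siRNA and at 0.247, 0.233, 0.907 and 0.330 CPM in HFD + Inhib (-6.08 ± 0.86, adjusted p = 6.9e-05), and the difference was -5.38 without HFD + siRNA replicate 2 and -6.75 without HFD + Inhib replicate 3. Enho, which encodes the peptide adropin and is on the insulin signalling list, was at 19.8, 15.5, 20.1 and 17.5 CPM against 1.87, 0.816, 1.10 and 0.660 CPM (-4.04 ± 0.41, adjusted p = 3.2e-06). Lrtm1 (-5.65 ± 0.68), Nptx1 (-5.21 ± 0.53), the neurotrophin receptor Ntrk2 (-4.06 ± 0.65), the calcium pump Atp2b2 (-3.36 ± 0.36) and the organic anion transporter Slc22a7 (-3.26 ± 0.37) fell as well; lack of overlap between the groups was a condition for being among the 10. Ntrk2 was at 34.3 CPM in HFD + siRNA replicate 1 and stood at -2.82 without it. Tgtp1 (-3.17) and Gm2004 (-3.38) were also among the 10 largest decreases, with 81.2% and 100% of their 50-base words in other genes. Gpc1, a cell surface proteoglycan of the same list as Peg3, fell from between 35.4 and 60.2 CPM to between 5.49 and 8.12 CPM (-2.88 ± 0.25, adjusted p = 5.8e-07). Serpina1e was the largest decrease among genes with a mean of at least 100 CPM, at 3911, 4373, 1812 and 3113 CPM against 1378, 170, 238 and 69.2 CPM (-2.83 ± 0.79, adjusted p = 0.011), and it stood at -4.36 without HFD + Inhib replicate 1.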

How the data were processed

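Liver RNA of 16 mice, 4 per group, was sequenced. Per the labels, the authors aligned reads with STAR to mm39 and deposited RSEM expected counts per gene symbol without scaling; the paper's methods name HTG EdgeSeq, a probe assay, which does not match such a table, and statements on GC content and shared reads hold only for reads along transcripts. Counts were rounded (15.1% were not whole). Genes were filtered with filterByExpr (minimum count 10, minimum total 15), scaled by TMM and tested in one fit of 16 libraries with the quasi-likelihood test of edgeR 4.0.16 (R 4.3.3; limma 3.58.1; DESeq2 1.42.0), with a threshold of 0.05. The correction fitted splines with 5 degrees of freedom of GC content and log2 length of GENCODE M21 transcripts in each library and entered the fit as offsets. Floors were 3 counts per library. Symbols of mitochondrial genes are those of the table (ND1, COX1). Gene positions are not given because the reference used here is GRCm38, except for RefSeq promoters.

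Named genes were the reference genes of each list, up to 4 members with the largest called change, the 10 largest increases and decreases without overlap of the groups (mean log2 CPM 1 or more), and the 5 largest of each at 100 CPM or more. The 2 sets of libraries, the lists and the rule were chosen with earlier results of these data known. Words of 50 bases were counted in GENCODE transcripts. The scripts were tested on simulated data. Some named genes are not reported here. Replicates were taken as separate mice, and the same replicate number in different groups was not taken as a pair. Alternatives were DESeq2, RLE size factors, other count filters, a fit of the 8 libraries, the replicate block, the GC correction, stricter thresholds and leaving out each library.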

Additional observations from a re-analysis of the deposited data

Results flagged for a closer look

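In 31 of 414 groups of 4 libraries, one library lay further from the rest of its group than Dixon's 95% limit for 4 samples. About 1 in 20 would pass this limit by chance if the values were independent and normally spread. CPM of chosen genes from the same libraries need not be either, so the 31 do not measure an excess. The values below are CPM, and no cause was tested.

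In HFD + siRNA replicate 1, Ntrk2 was at 34.3 against 3.24 to 7.46 in the other 3 libraries, Cyp4a14 at 201 against 138 to 147, Cyp2f2 at 673 against 547 to 555 and Adrb3 at 10.2 against 4.48 to 5.44. The same library was low at Glul, with 641 against 1165 to 1219, and at Pgd, with 25.1 against 30.6 to 31.0. It alone held counts of Gm8783 (1.01) and Gm14419 (0.190) in its group. HFD + siRNA replicate 2, whose GC trend differed from the rest of its group, was high at Fabp5 (6.96 against 2.18 to 2.34), Elovl6 (70.2 against 36.4 to 41.3), Cat (2561 against 2245 to 2296), Hadhb (173 against 149 to 153) and Rpe (27.7 against 20.9 to 22), and alone held counts of Gm5940 (0.328). In HFD + siRNA replicate 3, Aqp7 was at 0.384 against 0.0879 to 0.109.

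HFD + Inhib replicate 1 was high at Serpina1e (1378 against 69.2 to 238), Tat (1158 against 575 to 616), Sds (203 against 54.6 to 76.2), Acadsb (124 against 106 to 108), Adrb3 (22.2 against 12.3 to 13.4), Slc22a7 (5.79 against 2.80 to 3.24), Sptlc3 (4.49 against 1.17 to 1.63) and Hk3 (3.71 against 2.33 to 2.40). HFD + Inhib replicate 2 was high at Tkfc (184 against 116 to 127) and Gapdh (1046 against 829 to 866). HFD + Inhib replicate 3 was high at Fabp5 (61.5 against 20.3 to 26.1) and Serpina12 (0.907 against 0.233 to 0.330), and low at Asgr1 (142 against 210 to 223), Vnn1 (248 against 281 to 287) and Bdh1 (197 against 217 to 220). In HFD + Inhib replicate 4, Cyp2a5 was at 163 against 56.8 to 64.8.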

How the results depend on the processing

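The counts of 3164 genes higher and 3040 lower stayed within 1.5 times under DESeq2, RLE size factors, both other filters, the fit of 8 libraries and the correction. With the correction the genes behind these counts were partly different, as given above. A minimum absolute log2 fold change of 1 left 820 and 700, and an adjusted p under 0.01 left 1599 lower. Without single libraries, 2702 to 3347 were higher and 2232 to 2904 lower, and the Khk difference was 3.12 to 3.48.

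For replicate numbers 1 to 4, samples with the same number had correlations of 0.167, 0.0959, -0.0666 and -0.0891. With samples of other numbers the correlations were -0.0548, -0.0349, 0.0286 and 0.0258. The same-number value was the higher one for numbers 1 and 2 only, so the numbers were not taken as pairs. With the replicate block, 3120 genes were higher and 3077 lower, and Khk stood at 3.26. Among 206 genes examined singly, 3 lost a call with the block (Gys2, Mup1 and Lipe) and 3 gained one (Hamp, Hspa5 and Cyp2f2). In the fit of only the 8 libraries compared, 5 lost a call (Mt1, Arntl, Degs1, Lipe and Bdh2) and 2 gained one (Acly and Hamp). With the correction 7 lost a call (Aldh2, Pklr, Gk, Gys2, Gpt, Dnajb9 and Rpe), and with the block added 9 did (Hk3, Mt1 and Angptl8 as well, while Pklr was called). With the block 5 periportal, 5 endothelial and 2 MHC class II genes were lower and 1 clock gene higher. In the fit of 8 libraries 3 lipid-associated macrophage, 5 stellate and 1 cholangiocyte marker were lower. With a minimum of 10 counts in every library, which tests fewer genes, 5 cell cycle genes, 2 lipid-associated macrophage markers and no lymphocyte or neutrophil marker were lower and 4 periportal genes higher, as also with DESeq2 for the latter; 2 siRNA uptake genes were lower with no filter.

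Some genes that were not called changed sign. After the correction, and with the block added, Hk2 stood at 0.02 and 0.01, Srebf1 at 0.11 and 0.09, Bdh1 at 0.12 and 0.12, Igf1 at -0.10 and -0.11 and Per2 at 0.16 and 0.05. Without single libraries Hk2 ranged from -0.29 to 0.00, Srebf1 from -0.42 to 0.01, Mlxipl from -0.02 to 0.10, Fgf21 from -0.43 to 0.13, G6pc from -0.32 to 0.15, Sqle from -0.17 to 0.34, Glul from -0.22 to 0.13, Per2 from -0.33 to 0.16, Asns from -1.44 to 0.43, Acadsb (-0.01) from -0.05 to 0.08 and Sds from -0.43 to 0.69. Under DESeq2, RLE size factors, no filter and the fit of 8 libraries Acadsb stood at 0.00, and at 0.01 with a minimum of 10 counts in every library. The cause was not tested. Depth limits genes near 3 counts per library, where a fold is a lower bound.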
